A study of Homo sapiens with 24 samples.

Results

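OCI-AML3 cells sorted from the spleens of mice treated for 72 h with a CXCR4 inhibitor were compared with those from untreated mice, on 5 of the 24 arrays of the study, taken by their titles: 2 treated spleens, from mice 8 and 9, and 3 control spleens, from mice 4, 5 and 6. OCI-AML3 is an established human acute myeloid leukaemia line, here carrying luciferase and GFP, that was grown in NSG mice, an immunodeficient strain without T, B and NK cells whose own macrophages and neutrophils remain. The inhibitor, LY2510924 (spelled LY2510294 in the sample characteristics), was injected under the skin at 2.5 mg/kg daily from day 40 after inoculation. The control mice had no treatment and were harvested on day 42, and the 72 h mice on day 43, so that treatment and day of harvest cannot be told apart. Cells were isolated by GFP and human CD45 from spleen, femoral marrow and blood of the same 8 mice, which include 3 treated for 24 h and harvested on day 41. Replicates are mice that had received the same line.

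CXCR4 is a G protein-coupled receptor of leukaemia and blood stem cells for CXCL12, a chemokine made by stromal cells of the marrow and, among other organs, the spleen. Blocking it releases cells from these sites into the blood. Leukaemia cells in the spleen lie among macrophages and stroma of the host, which is murine here, and they can respond to cytokines, of which the interferons act through STAT and IRF factors on a shared set of antiviral genes.

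The 2 mice at 72 h were unlike. Probes detected (detection p under 0.01) numbered 14452, 14781 and 14496 on the control arrays, 13496 for mouse 8 and 15167 for mouse 9. The mean level of 4 small RNAs (SNORD3A, SNORD3C, SNORD3D and RN7SK) was 9.18, 8.21 and 8.89 in the controls, 11.78 in mouse 8 and 9.42 in mouse 9, in normalised log2 intensity, the scale of all levels below. Control arrays correlated with each other by 0.989 to 0.993 across genes. Mouse 9 correlated with them by 0.973 to 0.979 and mouse 8 by 0.904 to 0.913, and the arrays of mice 8 and 9 by 0.938 with each other. The mouse 8 spleen array correlated by 0.966 with the blood array of mouse 9 and by 0.965 with its own marrow array. Control mouse 4 was hybridised on 1 BeadChip, and the other 4 arrays compared on a second.

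**Figure D1:**
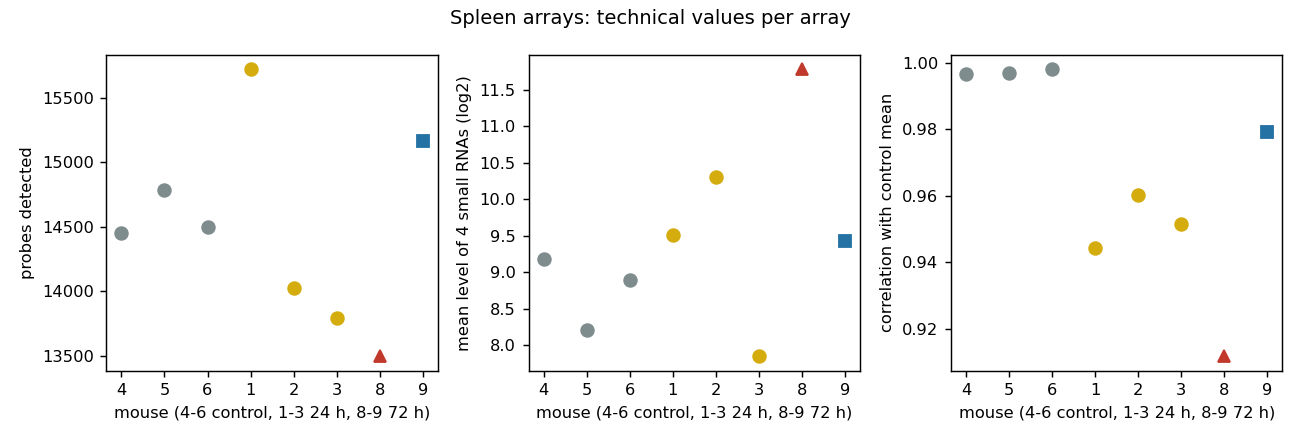
Number of probes detected, mean level of 4 small RNAs (normalised log2 intensity) and correlation across genes with the mean of the control spleen arrays (which includes each control array itself), for the 8 spleen arrays, 1 point per mouse (controls grey, 24 h yellow, mouse 9 blue). Mouse 8 (red triangle) had the fewest probes detected at 13496, the highest small RNA level at 11.78 and the lowest correlation.

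Of the 8 identity markers of the line on the array, FLT3, CD38, ITGAM and ANPEP were detected on all 5 arrays, while MPO, CD4 and KIT were detected on none. The probe for PTPRC, which encodes the CD45 used in the sort, was detected on 2 of the 3 control arrays and on neither array at 72 h. The T cell genes CD3D, CD3E, CD3G, CD2 and CD8A, the B cell genes MS4A1, CD79A and PAX5, the macrophage genes C1QB, C1QC, CD5L, VSIG4 and TIMD4, and the stromal genes COL1A1, COL1A2, COL3A1, DCN and VWF were detected on none of the 5 arrays. The probes are for human genes and the host is murine, and how far host RNA would be read by them was not tested. Other markers were detected at 72 h and on no control array. These were CD79B in both mice, and MZB1 and C1QA in mouse 8. In mouse 9 they were COL6A1, PDGFRB, the platelet gene PPBP and HBB, a globin. SLC40A1, of the macrophage list, was detected on each control array and in neither mouse at 72 h. T and NK cell markers summed to 10.23 to 10.44 in the controls, 11.12 in mouse 8 and 10.54 in mouse 9, with 3 or 4 of 13 detected on each array. Stromal and endothelial markers summed to 9.87 to 10.25 in the controls, 9.94 in mouse 8 and 10.32 in mouse 9, with 1 of 13 detected except in mouse 9, with 3. Erythroid markers summed to 14.11 to 14.34 in the controls, 14.35 in mouse 8 and 14.33 in mouse 9, with 4 of 13 detected in mouse 9 and 2 or 3 on the others, and the 3 that were tested had a median difference of 2.03 in mouse 9 and 0.13 in mouse 8.

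With both mice together, 89 of 10351 genes differed between 72 h and control spleen, which is 0.86% (moderated test of limma, two-sided, Benjamini-Hochberg adjusted p under 0.05, the threshold used throughout). Of these, 52 were higher (0.502%), with a median difference of 1.56 on the log2 scale, and 37 were lower (0.357%), with a median of -1.5. The rises included the interferon-induced ISG15, IFITM3 and IRF7, the monocyte receptors CD14, TLR4 and TREM1 and the TNF-family ligand CD70, and the falls AMD1 of polyamine synthesis, the protease CTSV and the survival gene BCL2. An unadjusted p under 0.05 was found for 2609 genes. For all 89 genes called, both arrays at 72 h lay outside the range of the 3 controls, as was so for 26.1% of all genes on the upper and 23.7% on the lower side. In mixed RNA, a change in the level per cell and a change in the share of cells that express a gene cannot be told apart. The count depended on single arrays: it was 4 without mouse 8, 2327 without mouse 9, and 7, 26 and 15 without control mouse 4, 5 or 6. The calls of CD70, CTSV and DRC10 were kept whichever of the 5 arrays was left out, and those of CD14, ACSS1, FAM163A and TENT5B were lost only without mouse 8. With BeadChip as a block 27 genes were called, 26 of them among the 89, and within the second BeadChip, 2 against 2 arrays, limma called 0 with 1895 at an unadjusted p under 0.05. All 89 differences kept their direction in both of these fits.

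**Figure D2:**
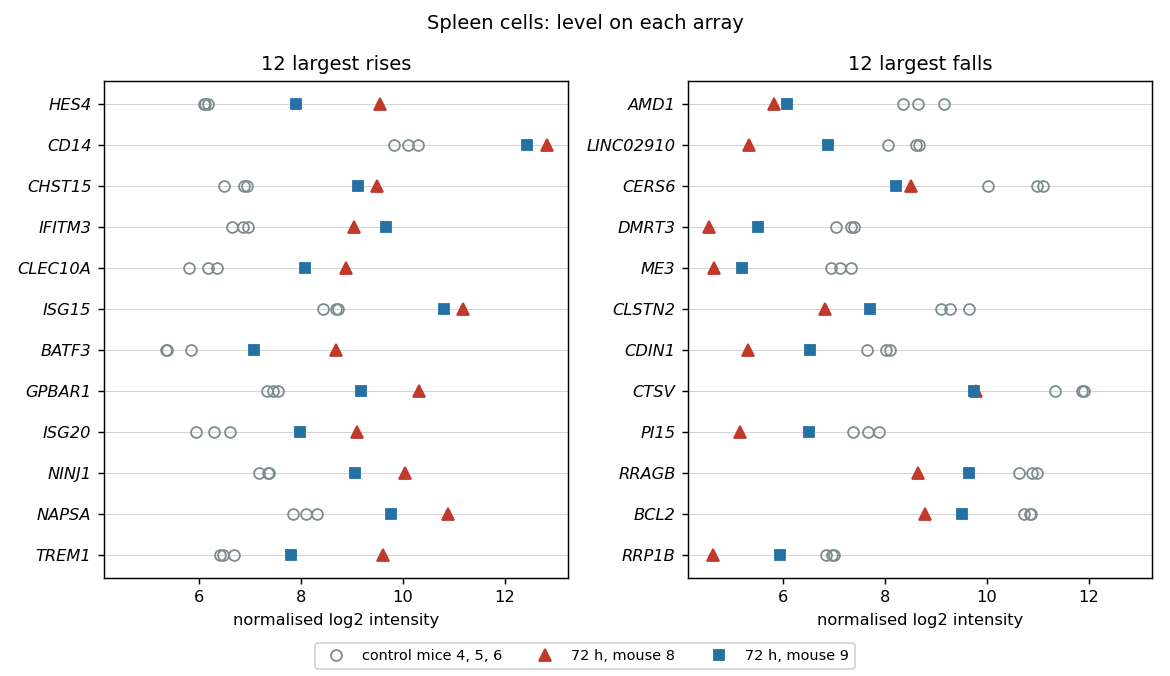
Level (normalised log2 intensity) of the 12 largest rises and the 12 largest falls among the genes called, on each of the 5 spleen arrays: controls as open circles, mouse 8 as red triangles, mouse 9 as blue squares. Both 72 h arrays lie outside the control range for each gene, a condition of the choice, and mouse 8 lies farther out than mouse 9 for all but IFITM3, CERS6 and CTSV.

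CXCR4 itself was read first. Its levels were 10.92, 11.14 and 11.15 in the controls, 9.71 in mouse 8 and 10.79 in mouse 9. Both treated arrays lay below the controls, mouse 9 by little. The difference of -0.82 ± 0.37 (SE, n = 2 and 3) did not pass limma's test over all genes (adjusted p = 0.176), and the other CXCR4 probe gave -0.18. In mouse 8 alone CXCR4 fell by 1.36 (adjusted p = 0.0314, limma), while mouse 9 alone gave -0.28 (adjusted p = 0.994). ACKR3, the second receptor for CXCL12, stood at 9.80, 9.73 and 9.88 in the controls, 10.63 in mouse 8 and 11.67 in mouse 9. The ranges did not overlap, but the difference of 1.35 ± 0.47 was not called either (adjusted p = 0.109, limma). None of the 3 probes for CXCL12 was detected on any of the 24 arrays.

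Interferon response genes were among the largest rises. ISG15, a ubiquitin-like protein joined to other proteins after interferon, was at 8.68, 8.74 and 8.44 in the controls, 11.17 in mouse 8 and 10.80 in mouse 9. Both treated arrays stood clear of the controls and near each other, 5.15-fold higher on average (log2 difference 2.37 ± 0.43, adjusted p = 0.0155, limma). IFITM3, a membrane protein that blocks virus entry, was at 6.86, 6.65 and 6.96 in the controls, 9.03 in mouse 8 and 9.67 in mouse 9. Here mouse 9 was the higher, and the difference was 2.53 ± 0.49 (adjusted p = 0.0232, limma). ISG20, an exonuclease that degrades RNA, went from 5.96, 6.61 and 6.30 to 9.11 in mouse 8 and 7.99 in mouse 9. Its difference of 2.26 ± 0.47 was called (adjusted p = 0.0269, limma) with mouse 8 ahead. IRF7, the factor that amplifies interferon transcription, went from 8.32, 7.96 and 7.95 to 9.41 in mouse 8 and 9.55 in mouse 9, close together and clear of the controls, with a difference of 1.40 ± 0.28 (adjusted p = 0.0246, limma) and 1.38 on its other probe. PARP12, an interferon-induced ADP-ribosyltransferase, rose by 1.12 ± 0.25 (adjusted p = 0.0351, limma). All of these calls were lost without mouse 8, and, ISG15 in the case of mouse 5 excepted, without any 1 of the control mice.

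Promoter sequences were read for the interferon-linked genes that rose, as these genes have a known control element, the interferon-stimulated response element, whose core is GAAANNGAAA on either strand (TTTCNNTTTC when read on the other). The stretches below are the 130 bases before the RefSeq start of each gene in GRCh38.p14, 5′ to 3′ on the gene's strand, with matches to that core in capitals. ISG15 lies at chr1:1013367-1013496 on the plus strand, IFITM3 at chr11:320861-320990 on the minus strand, ISG20 at chr15:88638886-88639015 on the plus strand and PARP12 at chr7:140062952-140063081 on the minus strand.
ISG15: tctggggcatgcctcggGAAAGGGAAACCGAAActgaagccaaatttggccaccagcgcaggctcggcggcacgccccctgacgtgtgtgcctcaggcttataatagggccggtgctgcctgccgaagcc
IFITM3: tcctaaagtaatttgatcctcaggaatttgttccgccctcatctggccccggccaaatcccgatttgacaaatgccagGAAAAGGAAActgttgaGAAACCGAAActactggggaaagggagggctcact
ISG20: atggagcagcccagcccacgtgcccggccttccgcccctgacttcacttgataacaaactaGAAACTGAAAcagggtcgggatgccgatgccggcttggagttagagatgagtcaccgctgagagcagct
PARP12: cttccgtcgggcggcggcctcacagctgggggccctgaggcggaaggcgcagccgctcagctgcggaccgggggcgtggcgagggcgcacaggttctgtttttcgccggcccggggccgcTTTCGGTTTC
ISG15 holds 2 matches that overlap, starting 113 and 107 bases before the start, and IFITM3 2 apart, at 52 and 35 bases. ISG20 holds 1 match at 69 bases, and PARP12 holds 1, read on the other strand, at 10 bases. Over the 300-base windows of the table, from 250 bases before to 50 after a start, 5 of the 36 rises with a window (13.9%) held the core, MVP being the fifth, and 0 of the 30 falls with a window. Among all genes tested 332 of the 8349 with a window did (3.98%), and among all 27305 genes with a window 1195 (4.38%). In the list of interferon-stimulated genes the core was found in 11 of 15 (73.3%). A gene can have several windows, and a match is a string of letters, not a site shown to be bound. IRF7 had no window in the table.

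Of the whole list of interferon-stimulated genes, 20 of 24 were tested, and 2, ISG15 and IRF7, were called higher and 0 lower, against 0.502% and 0.357% of all genes. Its median difference was 1.13, that of all genes 0.02. Both treated arrays lay above the controls for 13 of the 20 genes (26.1% of all genes) and below for 1, RSAD2 (23.7% of all genes). The mice were not alike here either, the median being 0.86 in mouse 8 and 1.79 in mouse 9. IFI27, a small protein strongly induced by type I interferon, was at 5.61, 6.08 and 4.78 in the controls, 7.44 in mouse 8 and 10.11 in mouse 9. IFI6, another such gene, was at 9.66, 8.90 and 8.83, then 8.91 in mouse 8, within the control range, and 11.70 in mouse 9, above it. MX1, an antiviral GTPase, was at 9.05, 7.33 and 7.51 in the controls, 9.42 in mouse 8 and 11.46 in mouse 9. IFIT1, which binds viral RNA, was at 5.92, 5.77 and 4.92, then 5.64 in mouse 8 and 8.55 in mouse 9, the latter far above the control range. The IFIT1 values of control mice 5 and 6 and of mouse 8 were not above background. The same held for the IFI27 values of control mice 4 and 6. IFI27, IFI6, MX1 and IFIT1 were not called, their adjusted p ranging from 0.0664 for IFI27 to 0.239 for IFIT1 (limma). IRF9, the DNA-binding part of the interferon-activated STAT complex, was at 10.32, 10.15 and 10.10, then 11.29 in mouse 8 and 11.21 in mouse 9, similar in both, and just missed the threshold (1.06 ± 0.26, adjusted p = 0.0562, limma). IFIT3, which works with IFIT1, gave 1.69 ± 0.42 (adjusted p = 0.064, limma).

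Among receptors of monocytes, CD14, the co-receptor that hands bacterial lipopolysaccharide to TLR4, was at 9.83, 10.10 and 10.29 in the controls, 12.83 in mouse 8 and 12.43 in mouse 9. Both mice were far above the controls, 5.88-fold on average (2.56 ± 0.38, adjusted p = 0.00436, limma), and the second CD14 probe gave 2.87. TLR4 itself was detected on 1 of 3 control arrays, at 5.81, 5.81 and 6.30, and on both at 72 h, at 8.17 in mouse 8 and 7.42 in mouse 9. TREM1, an activating receptor of monocytes and neutrophils, was at 6.69, 6.48 and 6.41, then 9.61 in mouse 8 and 7.81 in mouse 9. Both were called, TLR4 with 1.82 ± 0.38 (adjusted p = 0.0269, limma) and TREM1 with 2.18 ± 0.49 (adjusted p = 0.0379, limma), in each case with mouse 8 farther from the controls. CLEC10A, a galactose-binding lectin of dendritic cells and macrophages, went from 5.81, 6.35 and 6.19 to 8.89 in mouse 8 and 8.09 in mouse 9, a difference of 2.37 ± 0.47 (adjusted p = 0.0253, limma). It was detected on 2 of 3 control arrays, and its other 2 probes gave 1.96 and 1.14. The CD14 call was lost without mouse 8, the TLR4, TREM1 and CLEC10A calls without mouse 8 or any 1 control.

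In the list of mature monocyte and granulocyte genes, 22 of 24 were tested. With both mice together 3, CD14, TLR4 and TREM1, were called higher and 0 lower, against 0.502% and 0.357% of all genes. The median difference was 0.88, against 0.02 for all genes, and was 0.80 in mouse 8 and 0.79 in mouse 9. These near-equal medians do not mean that the members moved alike in mice 8 and 9, as LYZ below shows. Both treated arrays lay above the controls for 12 of the 22 genes (26.1% of all genes) and below for 1 (23.7% of all genes). Members ranged from -1.32 to 2.56. The calprotectin genes S100A8 and S100A9, abundant in these cells, stood in mice 8 and 9 at 14.22 and 14.19 for S100A8, against 13.10 to 13.56 in the controls, and at 13.63 and 13.60 for S100A9, against 11.64 to 12.20. Neither was called (adjusted p = 0.249 and 0.102, limma). Other members were lower: LYZ, lysozyme, was at 14.41, 14.36 and 14.33 in the controls, 13.16 in mouse 8 and 14.46 in mouse 9, and FCGR1A, the high-affinity Fc receptor, was at 8.77, 8.49 and 8.81, then 6.80 in mouse 8 and 7.95 in mouse 9. LYZ was low in mouse 8 only and FCGR1A in both, and neither was called (adjusted p = 0.236 and 0.118, limma). The summed level of 11 tissue macrophage markers was 9.97 to 10.13 in the controls, 10.91 in mouse 8 and 10.72 in mouse 9, with 3 or 4 of them detected per array. CD163 is in both lists. The part of such markers in the monocyte rises was not tested. C1QA was detected in mouse 8 alone, and C1QB, C1QC, CD5L, VSIG4, TIMD4 and VCAM1 on none of the 5 arrays. SLC40A1 went the other way, detected on each control array and in neither mouse at 72 h.

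The LILR genes, receptors with inhibitory or activating tails that myeloid cells carry, and related receptors had a median difference of 1.01 over 12 genes, none called. For 10 of the 12 both treated arrays lay above the controls, as for 26.1% of all genes. CD300A, an inhibitory receptor, was at 6.61, 6.49 and 7.01, then 9.60 in mouse 8 and 7.98 in mouse 9 (2.09 ± 0.58, adjusted p = 0.0765, limma). LILRA5, LILRB2 and SIGLEC9 gave 2.11, 1.58 and 1.50, with adjusted p of 0.0872, 0.088 and 0.0872 (limma). In mouse 8 alone 6 of the 12 were called higher, against 10.5% of all genes, and in mouse 9 alone 0, against 0.0193%.

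MHC class II genes, which present peptides to T cells, separated the mice most among the lists described. Over 9 genes tested the median difference was 2.46 in mouse 8 and 0.42 in mouse 9, and 7 were called higher in mouse 8 alone, where 10.5% of all genes were, and 0 in mouse 9. CD74, the invariant chain that guides class II molecules, was at 9.99, 10.12 and 9.93 in the controls, 12.53 in mouse 8 and 10.55 in mouse 9. HLA-DMA, which loads the peptide, was at 8.19, 8.31 and 8.26, then 11.37 in mouse 8 and 8.72 in mouse 9. CIITA, the master activator of the class II genes, was detected in mouse 8 alone of the 5 arrays, at 7.71, which was at least 3.58-fold above the controls. In each case mouse 8 stood far above the others, and with both mice together no class II gene was called (adjusted p = 0.0847 for CD74 and 0.12 for HLA-DMA, limma). B cell markers summed to 7.95 to 8.12 in the controls, 8.71 in mouse 8 and 8.2 in mouse 9. Of 8 on the array, 0 were detected on the controls, 2 in mouse 8 (CD79B and MZB1) and 1 in mouse 9 (CD79B), while MS4A1, CD79A and PAX5 were undetected on all 5 arrays. Their part in the class II values was not tested.

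Further rises included regulators of transcription and signalling. HES4, a repressor of the HES family linked to Notch, was at 6.17, 6.13 and 6.11, then 9.56 in mouse 8 and 7.90 in mouse 9, the largest mean difference among the rises at 2.59 ± 0.58 (adjusted p = 0.0379, limma). BATF3, a leucine zipper factor of dendritic cells, was at 5.37, 5.86 and 5.38, then 8.69 in mouse 8 and 7.09 in mouse 9, a difference of 2.35 ± 0.39 (adjusted p = 0.00785, limma). BATF3 was detected on 1 of 3 control arrays, so the size of the difference rests in part on values not above background. CHST15, a chondroitin sulphotransferase, was at 6.88, 6.49 and 6.95, then 9.50 in mouse 8 and 9.12 in mouse 9, alike in both mice (2.54 ± 0.58, adjusted p = 0.0431, limma). GPBAR1, the membrane receptor for bile acids, was at 7.34, 7.55 and 7.45, then 10.31 in mouse 8 and 9.18 in mouse 9 (2.30 ± 0.53, adjusted p = 0.0431, limma). NINJ1, which ruptures the membrane of dying cells, gave 2.25 and NAPSA, an aspartic protease, 2.23, both called with an adjusted p of 0.0269 (limma) and both higher in mouse 8. Leaving out mouse 8 ended each of these 6 calls, as did leaving out control mouse 4. Control mice 5 and 6 also ended them, BATF3 excepted.

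CD70, DRC10 and CTSV were called with both mice and whichever control was left out. Leaving out 1 treated array is the same fit as the other mouse alone, not a further test. All 3 calls were lost with the 5 arrays alone and within the second BeadChip. That of CTSV was also lost with array weights, and that of CD70 with the series matrix values, median scaling and the 8 spleen arrays alone. CD70, the TNF-family ligand of CD27, was at 7.55, 7.62 and 7.34 in the controls, 8.95 in mouse 8 and 9.66 in mouse 9, and rose by 1.80 ± 0.28 (adjusted p = 0.0059, limma). DRC10, a part of the dynein regulatory complex of cilia, was detected on 0 of 3 control arrays, at 4.67, 4.79 and 4.76, and on both treated ones, at 6.22 and 6.82. It was at least 1.58-fold higher, taking for each control array the lowest signal detected on it as a bound (adjusted p = 0.00245, limma). CTSV, the lysosomal protease cathepsin V, was at 11.86, 11.33 and 11.90, then 9.79 in mouse 8 and 9.75 in mouse 9. It fell by 1.93 ± 0.26, a 3.81-fold decrease with the same size in both mice (adjusted p = 0.00245, limma).

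Among the falls, AMD1 had the largest measured difference. This gene, for adenosylmethionine decarboxylase of polyamine synthesis, was at 9.16, 8.36 and 8.64 in the controls, 5.83 in mouse 8 and 6.08 in mouse 9. Both treated arrays were far below the controls, and the level fell by 2.77 ± 0.44 (adjusted p = 0.0059, limma). AMD1 was detected on 1 of the 2, so the size of the fall rests in part on a value not above background. CERS6, a ceramide synthase, was at 10.98, 10.02 and 11.11, then 8.52 in mouse 8 and 8.23 in mouse 9, lower in mouse 9 (-2.33 ± 0.52, adjusted p = 0.0375, limma). ME3, the mitochondrial NADP malic enzyme, was detected on all 3 controls, at 7.33, 6.94 and 7.13, and on neither treated array, which gave at least a 2.29-fold fall (adjusted p = 0.00755, limma). DMRT3, a transcription factor gene, was likewise detected on the controls alone, at 7.05, 7.40 and 7.34, and was at least 2.52-fold lower (adjusted p = 0.0395, limma). LINC02910, a long non-coding RNA, CLSTN2, a calsyntenin, and CDIN1, a nuclease, fell by 2.34, 2.08 and 1.99, all farther in mouse 8 (adjusted p = 0.0489, 0.00618 and 0.0269, limma). LINC02910, CDIN1, PI15 and RRP1B were detected on 1 of the 2 treated arrays. RRAGB, a Rag GTPase that carries amino acid signals to mTORC1, was at 10.88, 10.63 and 10.98, then 8.65 in mouse 8 and 9.64 in mouse 9, a fall of 1.68 ± 0.35 (adjusted p = 0.0269, limma), and its second probe gave -2.66. PI15, a peptidase inhibitor, fell by 1.81 on the probe used but gave -0.12 on its other probe, and RRP1B, a nucleolar protein, fell by 1.66. Leaving out mouse 8 or control mouse 4 ended each of these calls. Leaving out control mouse 6 ended all but those of AMD1, ME3 and CLSTN2, and control mouse 5 all but those of these genes and CERS6.

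BCL2, the survival protein that antagonises BAX and BAK1, was at 10.72, 10.85 and 10.87 in the controls, 8.78 in mouse 8 and 9.51 in mouse 9. It fell by 1.67 ± 0.35 on its brightest probe (adjusted p = 0.0269, limma), whereas its 4 probes ranged from -0.06 to -1.83. The call was lost without mouse 8 or any 1 control. It was the 1 member called of the 13 tested in the BCL2 family, against 0.357% of all genes called lower, and the family's median was 0.22. The death effector BAX was at 10.24, 10.81 and 9.98, then 9.04 in mouse 8 and 9.32 in mouse 9, and was not called (-1.16 ± 0.45, adjusted p = 0.135, limma). BAD and BAK1, both pro-apoptotic, gave 0.87 and 0.66, not called either.

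With both mice together, limma called no mitosis gene. Over 26 genes the median difference was -0.87, with both treated arrays below the controls for 24, against 23.7% of all genes. The median was -1.23 in mouse 8, where 8 were called lower (12% of all genes were), and -0.50 in mouse 9, where 0 were. MAD2L1, of the spindle checkpoint, was at 10.23, 9.95 and 10.14 in the controls, 5.52 in mouse 8 and 9.18 in mouse 9. Most of its mean difference thus came from mouse 8 (adjusted p = 0.0931, limma), and its second probe gave -0.66. CENPA, the centromere histone, was between 9.80 and 10.02 in the controls, then 7.86 in mouse 8 and 8.84 in mouse 9 (-1.59 ± 0.46, adjusted p = 0.0841, limma). BUB1, a checkpoint kinase, and KIF11, a spindle motor, gave -1.80 and -1.22, not called. BIRC5, which encodes survivin, was the member with a positive mean difference, 0.19. In spleen at 24 h against control the mitosis list had a median of -1.07, with 13 called lower (5.96% of all genes were). Its median for 72 h minus 24 h was 0.15. MYC, the growth factor-responsive transcription factor, was at 9.73, 9.81 and 9.72, then 7.59 in mouse 8 and 9.25 in mouse 9 (-1.33 ± 0.46, adjusted p = 0.109, limma). Its list with ribosome biogenesis genes had a median of -0.39 over 21 genes, 0 of them called with both mice together. The median of this list was -0.62 in mouse 8 and -0.05 in mouse 9. In spleen at 24 h against control it was -0.80, with 11 called lower (5.96% of all genes were), and 72 h minus 24 h gave 0.40. NCL, nucleolin, was at 12.22 in mouse 8 and at 13.50 in mouse 9, inside the control range of 13.46 to 13.54.

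Of 26 genes of glycolysis and the hypoxia response, 2 rose, against 0.502% of all genes: HK1, hexokinase 1, by 1.11 ± 0.19 (adjusted p = 0.00911, limma) and SLC2A3, the glucose transporter GLUT3, by 1.00 ± 0.22 (adjusted p = 0.0351, limma). HK1 was at 11.25, 11.31 and 11.35, then 12.53 in mouse 8 and 12.30 in mouse 9, and SLC2A3 at 10.40, 10.39 and 10.56, then 11.53 and 11.38, so that both were alike in both mice. The list's median was 0.32 with both mice together, 0.06 in mouse 8 and 0.26 in mouse 9, and its members ranged from -0.88 to 1.62. Of 18 NF-kB targets and cytokines, 1 rose, against the same share of all genes. This was RELB, a subunit of the non-canonical pathway, from below detection on all 3 controls (at least 1.17-fold, adjusted p = 0.0351, limma). The median of this list was 0.33 with both mice together, 0.36 in mouse 8 and 0.16 in mouse 9. Leaving out mouse 8 or control mouse 4 ended these 3 calls, and leaving out control mouse 5 or 6 those of SLC2A3 and RELB.

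**Figure D3:**
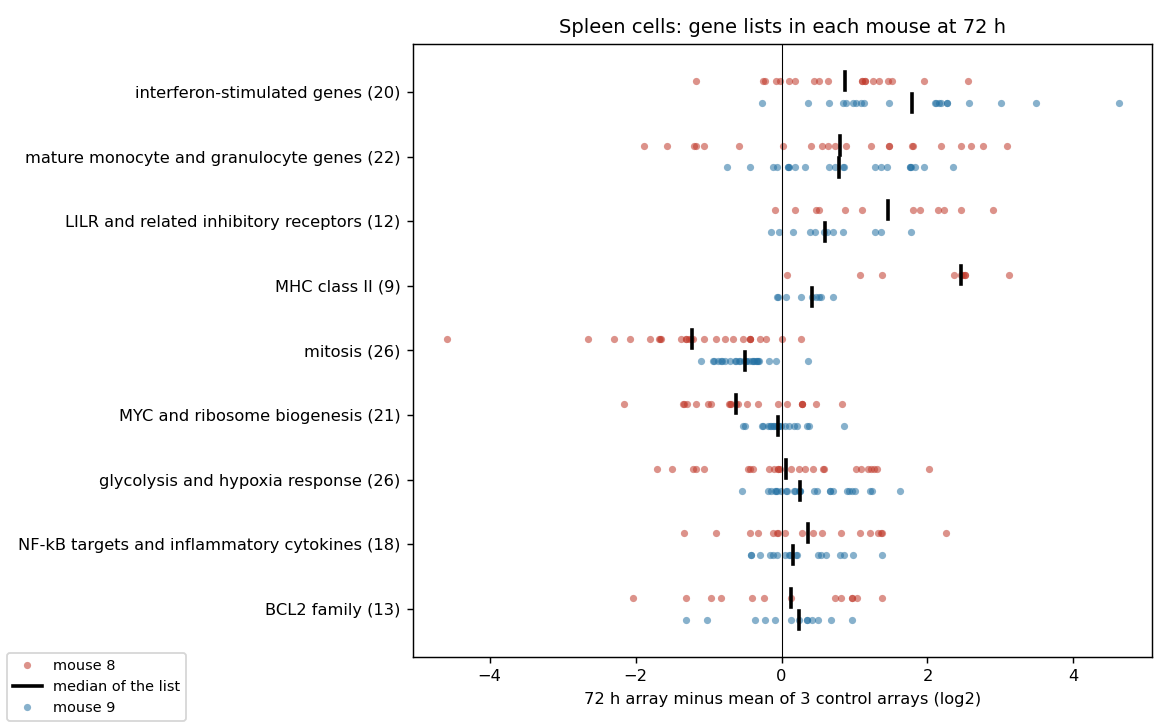
Difference of the array at 72 h from the mean of the 3 control spleen arrays (log2) for each tested member of 9 gene lists, mouse 8 in red and mouse 9 in blue, with the median of each list as a black bar and the number of genes in brackets. The 2 mice share the controls. Class II genes stand at a median of 2.46 in mouse 8 and 0.42 in mouse 9, interferon-stimulated genes at 0.86 and 1.79.

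Taken singly, the mice gave very different counts. Mouse 8 differed from the controls in 2327 genes, or 22.5%, of which 1083 were higher and 1244 lower. Mouse 9 differed in 4, or 0.0386%, with 2 higher and 2 lower (0.0193% each) and 514 at an unadjusted p under 0.05. In each case the single array was assumed to vary like the arrays of the other groups. Among the 89 genes called together, 73 lay farther from the controls in mouse 8 and 16 in mouse 9, with a median size of 1.80 and 1.22. The 4 calls of mouse 9 were CD70 (2.15, adjusted p = 0.0185), DRC10 (at least 1.94-fold higher, adjusted p = 0.00443), CTSV (-1.95, adjusted p = 0.0353) and NUFIP2, an RNA-binding protein (-2.38, adjusted p = 0.00419), by limma. NUFIP2 was at 10.56, 10.47 and 10.97 in the controls and 10.80 in mouse 8, and at 8.29 in mouse 9. Its second probe gave a difference of -0.003 with both mice together.

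The largest rises of mouse 8 were RAP1GDS1, a guanine exchange factor (3.78), SLC11A1, a metal transporter of phagosomes (3.70), HES4 (3.42), RIMBP3 (3.38) and SNORD3D, the U3 small nucleolar RNA (3.35). SLC11A1 was at 5.89, 6.59 and 6.62 in the controls, 10.06 in mouse 8 and 7.93 in mouse 9. RAP1GDS1 rested on 1 probe of 4, the others giving 0.51, 0.03 and -0.11 for both mice together. The largest falls were RPL23, a protein of the large ribosomal subunit , MAD2L1, ZEB2, a zinc finger repressor, HNRNPH2, a splicing factor (-3.63), and TRIM24. Those but HNRNPH2 were undetected in mouse 8, which gave at least a 36.7-fold fall for RPL23, 15.8-fold for MAD2L1, 12.4-fold for ZEB2 and 7.50-fold for TRIM24. The second TRIM24 probe gave -0.04 for both mice together, against -2.30 on the probe used. RPL23 was at 11.46, 11.27 and 11.23 in the controls, 4.71 and undetected in mouse 8, and 11.33 in mouse 9, inside the control range. At the other sites of mouse 8 it was at 7.99 in marrow and 6.25 in blood, against means of 11.49 and 11.15 in the controls of those sites. The 18 cytosolic ribosomal protein genes tested had a median difference of -0.14 in mouse 8. The small RNA level moved with mouse 8, and its part in these values was not tested.

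Among genes detected on both treated arrays, those higher in mouse 8 by most were KLHL28, RAP1GDS1, SPINT2, PRG2 and IER2. KLHL28 was at 14.06 in mouse 8 and 10.67 in mouse 9, with 11.24 to 11.84 in the controls, and SPINT2, a protease inhibitor, at 10.88 and 7.69, with 7.37 to 7.80. Those higher in mouse 9 by most were MIR574, BASP1, IFI6, IFI27 and HNRNPH2. BASP1, a membrane-bound signalling protein, was at 9.86 in mouse 8 and 13.52 in mouse 9, with 12.96 to 13.24 in the controls. These values describe 2 mice and carry no test.

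Marrow and blood of the same mice gave 2.6% of genes called in marrow and 33.8% in blood for 72 h against control. Of the 52 genes higher in spleen, 23 were called higher in marrow (background 1.63%) and 34 in blood (13.8%), and of the 37 lower, 17 were called lower in marrow (0.966%) and 28 in blood (20%). These are other arrays of the same animals. CD14 rose by 2.76 ± 0.38 in marrow and by 1.36 ± 0.38 in blood (adjusted p = 0.000725 and 0.0131, limma), and ISG15 by 2.20 ± 0.43 and 2.71 ± 0.43 (adjusted p = 0.0105 and 0.00131, limma). IFI27 was higher in mouse 9 than in mouse 8 at each site, at 10.73 against 8.56 in marrow, 10.11 against 7.44 in spleen and 10.29 against 8.55 in blood. IFITM3 had the same order at the 3 sites, at 10.19 against 8.09, 9.67 against 9.03 and 10.02 against 8.94.

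The test of whether the 72 h difference itself depended on site, within mice, called 1 gene for spleen against marrow (0.00966%) and 0 for spleen against blood (limma, 1567 at an unadjusted p under 0.05). The 1 gene was S100A10, a partner of annexin A2. In spleen it was at 14.25, 14.26 and 14.03 in the controls, 14.40 in mouse 8 and 14.24 in mouse 9, all close together. These spleen levels are among the highest of the genes named, and whether the signal could still rise there was not tested. The other S100A10 probe gave a 72 h difference of 0.42 in spleen. In marrow S100A10 was at 12.05 ± 0.12 (SD, n = 3) in the controls, 14.39 in mouse 8 and 13.82 in mouse 9. The difference between sites was -1.92 ± 0.22 (adjusted p = 0.00388, limma). The count of genes was 0 with control mouse 4 or 5 left out at all sites, and 1 with control mouse 6 left out at all sites. RAB7B, GNLY, SIGLEC12 and H19 had the next smallest p and were not called.

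**Figure D4:**
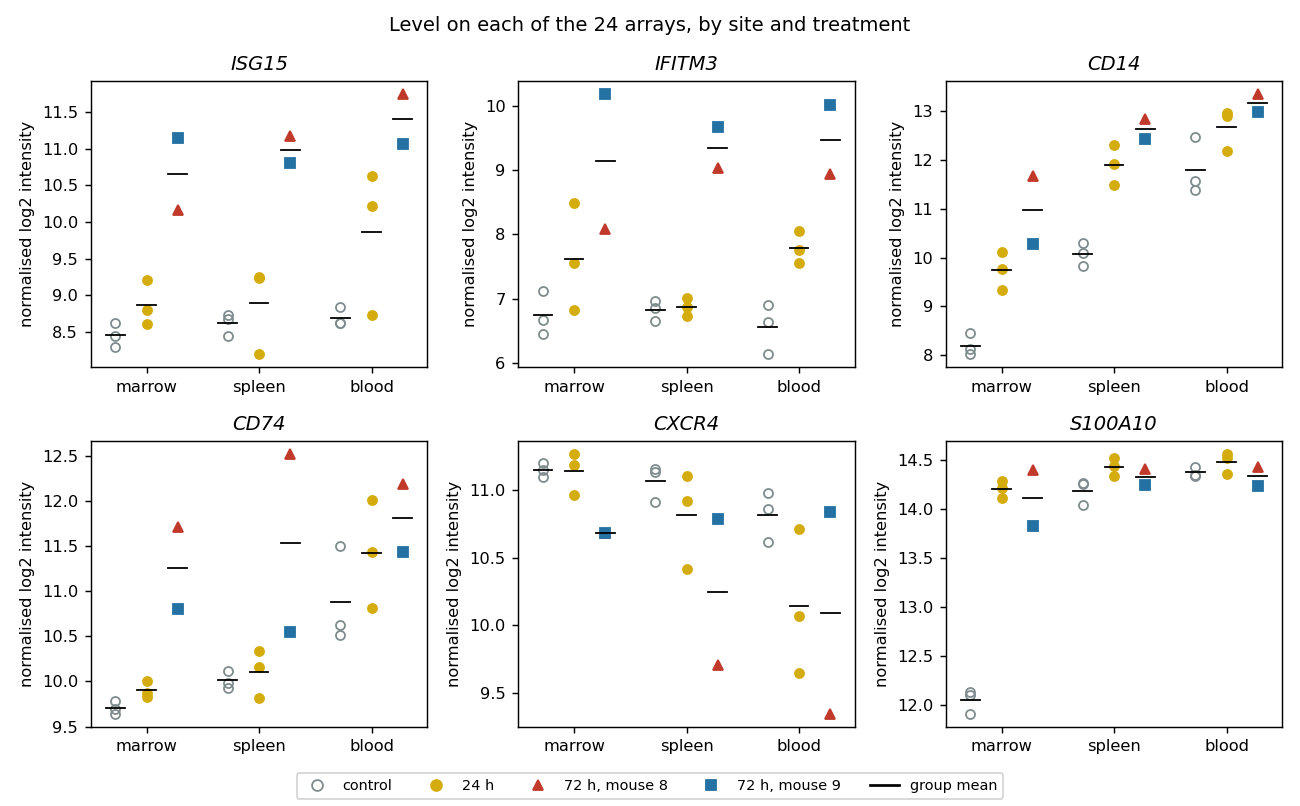
Level (normalised log2 intensity, axes not starting at 0) of 6 genes on all 24 arrays by site, with controls as open circles, 24 h as yellow circles, mouse 8 as red triangles, mouse 9 as blue squares and group means as black lines. In spleen, ISG15 and IFITM3 stand above controls at 72 h in both mice, CD74 is at 12.53 in mouse 8 alone, and S100A10 at 72 h lies above control in marrow and within 0.14 of it, on the mean, in spleen.

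Spleen cells at 72 h and at 24 h were compared directly, without the controls. Of all genes, 1366 differed (13.2%), 722 higher (6.98%) and 644 lower (6.22%) at 72 h. All 24 h arrays lay on the first BeadChip and all 72 h arrays on the second, and with BeadChip as a block, which only the controls inform, 135 genes were called. The count was 174 without mouse 8, 2351 without mouse 9, 373 without mouse 3, 663 without mouse 1 and 2182 without mouse 2. The smallest p went to MTFP1, a mitochondrial fission protein (1.96 ± 0.23), GBGT1, a glycosyltransferase (2.28 ± 0.27), DAAM1, a formin (-2.55 ± 0.31), STON1, an endocytic adaptor, and OSER1 (-1.27 ± 0.17), all still called with BeadChip as a block. DAAM1 was at 6.73 ± 0.16 (SD, n = 3) in control spleen, 8.2 ± 0.45 (SD, n = 3) at 24 h, 5.39 in mouse 8 and 5.91 in mouse 9, so the later arrays lay below both other groups. It was detected on 1 of the 2 arrays at 72 h. STON1 was detected on the 3 arrays at 24 h and on neither at 72 h, which gave at least a 2.99-fold difference. At 24 h against control, 12.5% of genes were called (6.55% higher, 5.96% lower). ISG15 was at 8.90 ± 0.61 (SD, n = 3) and IFITM3 at 6.87 ± 0.14 (SD, n = 3) at 24 h, against control means of 8.62 and 6.82. CD14 was at 11.90 ± 0.41 (SD, n = 3) at 24 h, between the control mean of 10.07 and the 2 arrays at 72 h. CTSV was at 9.57 ± 0.044 (SD, n = 3) at 24 h, below both arrays at 72 h.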

How the data were processed

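RNA of 24 samples (8 mice, 3 sites) was amplified in 2 rounds and hybridised to Illumina HT-12 v4 BeadChips, per the labels. The authors deposited mean bead intensity per probe, linear and without background subtraction, with a detection p-value, exported by GenomeStudio per the submitters' processing notes. The deposited series matrix holds the same intensity minus 1 constant per array. Intensities were corrected through the detection p-values, quantile normalised and put on the log2 scale with neqc of limma 3.58.1 (R 4.3.3, offset 16). Quantile normalisation gives every array the same distribution, so a shift of most genes would not show. Probes detected at p under 0.01 on at least 3 of 24 arrays were kept (17116 of 47231, 13275 with 1 symbol). The brightest kept probe stood for its gene (10351 genes). Symbols came from the platform listing: 30113 probes had 1, 8 several, 17110 none. 30074 were matched by gene ID to RefSeq, which changed 0 symbols.

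Treatment groups were compared with limma over all 24 arrays in 9 group means (10 when each 72 h mouse stood alone), and site dependence with mouse as a fixed block. In all 9 comparisons were tested, and a difference is treated minus control. Mouse numbers in the titles mark the animal: deviations of arrays of 1 mouse correlated by 0.284 over 24 pairs and by -0.162 over 42 pairs from other mice of the same treatment. Scripts were tested on simulated data. The summed level of markers is log2 of the sum of linear values. A bound ("at least") uses the lowest detected signal of each array. The number of arrays limits the precision.

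The members, gene lists and tests were chosen with earlier results of these data known. Named genes are CXCR4, CXCL12 and ACKR3, the 12 largest rises and falls called with both 72 h arrays outside the control range, the 5 largest rises and falls called in each mouse, the 5 most different between the mice each way, up to 4 list members of smallest p, and the 5 of smallest p in spleen against marrow and 72 h against 24 h. PARP12, ACSS1, FAM163A, TENT5B, MVP, CIITA, MX1, IFIT1, RSAD2, LYZ, FCGR1A, S100A8, S100A9 and BIRC5 were chosen after their values were seen. The promoter motif was searched after the calls were known. Of the 38 lists, 9 are described, chosen after their results were seen. Alternatives covered normalisation, filter, probe choice, arrays in the fit, BeadChip, replicate block, array weights and leaving out each array.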

Additional observations from a re-analysis of the deposited data

Results flagged for a closer look

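The 72 h difference of S100A10 depended on site: spleen minus marrow was -1.92 (adjusted p = 0.00388, limma), as S100A10 rose by 2.06 in marrow and stood at 0.14 in spleen. Control spleen already stood at 14.03 to 14.26, and whether the signal could still rise there was not tested.

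Of the 24 genes with the largest changes against control, 9 also differed in spleen between 72 h and 24 h (limma, adjusted p from 0.000867 to 0.0379), against 13.2% of all genes. The 24 were chosen on the same 72 h arrays. CLEC10A was higher at 72 h by 2.36, GPBAR1 by 1.98, IFITM3 by 2.48, ISG15 by 2.09 and BATF3 by 1.30. Lower at 72 h were PI15 with -2.57, AMD1 with -2.55, ME3 with -2.04 (at least 2.05-fold, as it was undetected at 72 h) and RRAGB with -1.29. With BeadChip as a block IFITM3, AMD1 and PI15 stayed called (adjusted p = 0.0467, 0.0422 and 0.0136), and the other 6 did not (adjusted p from 0.0603 to 0.244). Time and day of harvest cannot be told apart, and only the controls separate BeadChip from them.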

How the results depend on the processing

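All 89 differences kept their direction under each alternative in which the gene was measured, and no named value reversed. The count of 89 was 101 with offset 50, 70 with probes detected on all 5 arrays, 111 with the mean of all probes, 61 with no filter and 125 with mouse as a random replicate block. It moved to 3 with the series matrix values, 30 with median scaling (40% higher against 58.4%), 6 with the 5 arrays alone, 12 with the 8 spleen arrays alone, 27 with BeadChip as a block, 0 within the second BeadChip (limma, 1895 at an unadjusted p under 0.05), 2 with array weights (whose fit stopped short of its tolerance), 11 with mouse 8 left out at all 3 sites (chosen after seeing the data) and 4 to 2327 with 1 array left out. The cause was not tested, except that fits of 5 or 8 arrays hold fewer samples. The median of all genes moved from 0.02 to -0.19 with the series matrix values.

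Mouse 8 alone gave 1343 to 1535 calls with 1 control left out, 1778 with the series matrix values (4.78% higher against 46.5%) and 1927 with BeadChip as a block. Mouse 9 alone gave 2 to 4 with 1 control left out, 2 with the series matrix values and 3 with the block. Spleen against marrow gave 1 gene with no replicate block and 0 to 2 with 1 mouse left out, and spleen against blood 0 with no replicate block and 0 to 900, the highest without mouse 9. The 72 h against 24 h count of 1366 was 1471 with the random replicate block, 174 to 2351 with 1 array left out, and 135 with BeadChip as a block (chosen after seeing the data). The replicate block changed no other count by over 1.5 times. Low signal limits genes undetected on some or all arrays of a group, among them DRC10, DMRT3, ME3, RELB, STON1, CIITA, AMD1, BATF3, TLR4, CLEC10A, DAAM1, IFI27, IFIT1, RPL23, MAD2L1, ZEB2 and TRIM24.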
